A study of Mus musculus with 29 samples.

Results

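A set of 10 genes picked for a difference between adult mouse ovaries with and without the cell cycle inhibitor p27 was followed through 4 ages. The set holds Ogn, Rarres2, Serpina5, Bpifb4, Aqp2, Adgrg7, Paqr9, Dynap, Zfp521 and Pfn2, 10 of the 51633 genes with a symbol in the table. The genes were picked because they had some of the smallest p-values between genotypes at 12 weeks, at ranks 1 to 12 of 17396 tested genes with ranks 2 and 5 left out. The 12 week difference of these genes is therefore what chose them, and it is given as a description with no test. The libraries of the 3 earlier ages did not take part in the choice, and tests were made on those.

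The study measured RNA from mouse ovaries of wild-type animals (Cdkn1b +/+) and of animals homozygous for a null allele of the same gene (Cdkn1b -/-, called p27-null here). Ovaries came from embryos on days E13.5 and E18.5 of gestation, from pups on day 8 after birth (PND8) and from adults of 12 weeks (12wk). Wild type was covered by 4 libraries per age. The p27-null groups held 4 libraries at E18.5 and 3 at every other age, and the series holds 29 libraries in all. Ovaries were dissociated into cells with papain before RNA extraction in both genotypes. The strain, the part of Cdkn1b that is deleted and whether libraries came from 1 animal or from pooled animals are not given in the sources used here. The p-values below therefore measure the spread between these libraries, which may be partly technical. The series title puts the question as which genes of the pregranulosa cells, the somatic cells around young oocytes, depend on p27 when resting follicles are activated.

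p27, the product of Cdkn1b, binds cyclin-dependent kinases and holds cells back from DNA replication. In the ovary it is known as a brake on the activation of resting (primordial) follicles, and female mice without it are known to be infertile with disturbed corpus luteum function. The adult ovary mixes growing follicles, corpora lutea, hormone-producing theca cells, connective tissue, smooth muscle and blood vessels. In such bulk samples, fewer cells of a type and less RNA per cell cannot be told apart.

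The 10 genes fall into 3 groups by the place of their products. Ogn, Rarres2, Serpina5 and Bpifb4 encode secreted proteins. Aqp2, Adgrg7, Paqr9 and Dynap encode membrane proteins. Zfp521 encodes a nuclear zinc finger protein, and Pfn2 encodes a protein of the actin cytoskeleton.

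Promoter letters were read for the genes as a reference for where their transcription starts. RefSeq windows (GRCm38.p6) were found for 6 of the 10 genes, namely Ogn, Serpina5, Bpifb4, Aqp2, Adgrg7 and Pfn2, and not for Rarres2, Paqr9, Dynap and Zfp521. Shown are the 3 windows that held no annotated exon and ended within 31 bases of the gene start in GENCODE M21, each as the 250 bases before the RefSeq start, 5′ to 3′ on the gene's strand. Capitals mark matches, on either strand, to the motifs searched.

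Ogn: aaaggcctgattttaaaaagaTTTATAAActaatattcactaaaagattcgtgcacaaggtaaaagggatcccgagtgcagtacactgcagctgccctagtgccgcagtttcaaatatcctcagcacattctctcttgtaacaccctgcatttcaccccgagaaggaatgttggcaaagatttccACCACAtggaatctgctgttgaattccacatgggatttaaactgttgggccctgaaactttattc
Adgrg7: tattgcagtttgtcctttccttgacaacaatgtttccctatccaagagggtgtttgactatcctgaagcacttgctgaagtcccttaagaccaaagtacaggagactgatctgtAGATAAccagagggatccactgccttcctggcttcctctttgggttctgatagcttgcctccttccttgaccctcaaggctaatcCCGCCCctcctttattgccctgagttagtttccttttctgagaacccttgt
Serpina5: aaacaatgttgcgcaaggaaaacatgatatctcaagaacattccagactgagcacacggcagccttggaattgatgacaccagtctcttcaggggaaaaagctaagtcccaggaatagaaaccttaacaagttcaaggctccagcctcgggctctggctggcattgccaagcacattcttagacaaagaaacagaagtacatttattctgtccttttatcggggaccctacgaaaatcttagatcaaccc

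The Ogn window lies at chr13:49607765-49608014 on the plus strand, the Adgrg7 window at chr16:56795859-56796108 on the minus strand and the Serpina5 window at chr12:104100863-104101112 on the plus strand. Their GC contents were 42.0%, 47.2% and 44.8%, against a median of 52.4% over 32851 RefSeq windows of the same length. In the Ogn window, TATAAA occurred 229 bases before the start on the opposite strand and 227 bases before it on the gene's strand, overlapping, and TGTGGT occurred 65 bases before it. In the Adgrg7 window, AGATAA occurred 136 bases and GGGCGG 51 bases before the start. The letters searched were TATAAA, held by 12.4% of all windows, CCAAT by 33.8%, GGGCGG by 32.7%, AAGGTCA by 4.08%, TGACGTCA by 1.55%, TGTGGT by 14.0%, AGATAA by 9.99% and TTTCGCGC by 0.256%. None of these letters occurred in the Serpina5 window. Among the 3 windows not shown, that of Bpifb4 held CCAAT, that of Pfn2 held GGGCGG and that of Aqp2 held AGATAA. These matches describe letters only.

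Positions in GRCm38 (GENCODE M21) were as follows. Ogn (ENSMUSG00000021390) lies at chr13:49608046-49624501 and Rarres2 (ENSMUSG00000009281) at chr6:48569696-48572789. Serpina5 (ENSMUSG00000041550) lies at chr12:104101113-104106137 and Bpifb4 (ENSMUSG00000074665) at chr2:153938212-153964101. Aqp2 (ENSMUSG00000023013) lies at chr15:99579055-99584547, Adgrg7 (ENSMUSG00000022755) at chr16:56724609-56795855 and Paqr9 (ENSMUSG00000064225) at chr9:95559657-95568023. Pfn2 (ENSMUSG00000027805) lies at chr3:57841895-57848079. Dynap (ENSMUSG00000024512) lies at chr18:70240429-70244582 and Zfp521 (ENSMUSG00000024420) at chr18:13687013-13972787. Rarres2 was the 1 gene of the 10 whose exons overlap those of another gene, Lrrc61, on the opposite strand. Its expected counts were not whole numbers in 28 of 29 libraries, while those of the other 9 genes were whole in every library. Whether the authors counted by strand is not given in the sources used here. In each library the fractions of Rarres2 and Lrrc61 completed each other to a whole number. In wild-type E13.5 replicate 1, for example, the expected counts were 633.65 and 248.35. Some reads were thus shared out between both genes, so their levels cannot be told apart with certainty. Lrrc61 itself was at 19.2 ± 3.69 CPM in wild-type and 16.6 ± 1.58 CPM in p27-null ovaries at 12wk (SD, n = 4 and 3).

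Library totals ran from 14.1 M to 48.2 M expected counts, and values are given as CPM, a count scaled to its library's total after TMM scaling of that total. The floor of 3 counts was at 0.07 to 0.227 CPM and covers counting error only. Cdkn1b itself was lower in every p27-null library than in every wild-type library of its age, by 5.08-fold in E13.5, 8.14-fold in E18.5, 2.07-fold in PND8 and 3.58-fold in 12wk ovaries. Of 15 cell type marker lists, 2 were higher in p27-null ovaries at 12wk with no overlap between genotypes. Among single genes tested at that age, 8.77% showed no overlap in either direction. No test set the lists against that share, so a change in cell types is not read from the count. The summed level of the 5 smooth muscle markers was 549 to 640 CPM in wild type and 696 to 1630 CPM in p27-null. That of the 6 erythroid (red blood cell) markers was 86 to 162 CPM and 224 to 809 CPM. The highest value of both lists came from p27-null replicate 4. Replicates 1 and 3 were at 1053 and 696 CPM for smooth muscle and at 229 and 224 CPM for erythroid markers. Replicate 4 was also the highest 12wk library on the endothelium list (1093 CPM) and the leukocyte list (211 CPM). The erythroid list varied widely within a genotype at other ages, from 1580 to 33200 CPM in wild type at E18.5. The 4 theca markers summed to 447 to 873 CPM and 857 to 1220 CPM, and the 8 oocyte markers to 7.94 to 106 CPM and 4.65 to 8.14 CPM, both overlapping. At the earlier ages the list of 6 Schwann cell and nerve markers was lower in p27-null ovaries without overlap, at 15.1 to 282 CPM against 5.1 to 6.54 CPM at E13.5, 131 to 222 CPM against 68.2 to 83.2 CPM at E18.5 and 53.1 to 67 CPM against 27.4 to 33.9 CPM at PND8. The list of 8 genes named luteal, among them Star and Cyp11a1, was higher in p27-null without overlap at 2 ages. At E18.5 it was at 237 to 341 CPM in wild type against 372 to 491 CPM in p27-null. At PND8 it was at 1130 to 1420 CPM against 1490 to 2320 CPM. This list is named for a cell type of the adult ovary, and its level does not show luteal cells at these ages. Single genes without overlap made up 3.73%, 15.2% and 14.3% of those tested before 12wk, from the youngest age on. The lists were not tested against these shares either. The part of cell types in the results below was not tested.

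**Figure D1:**
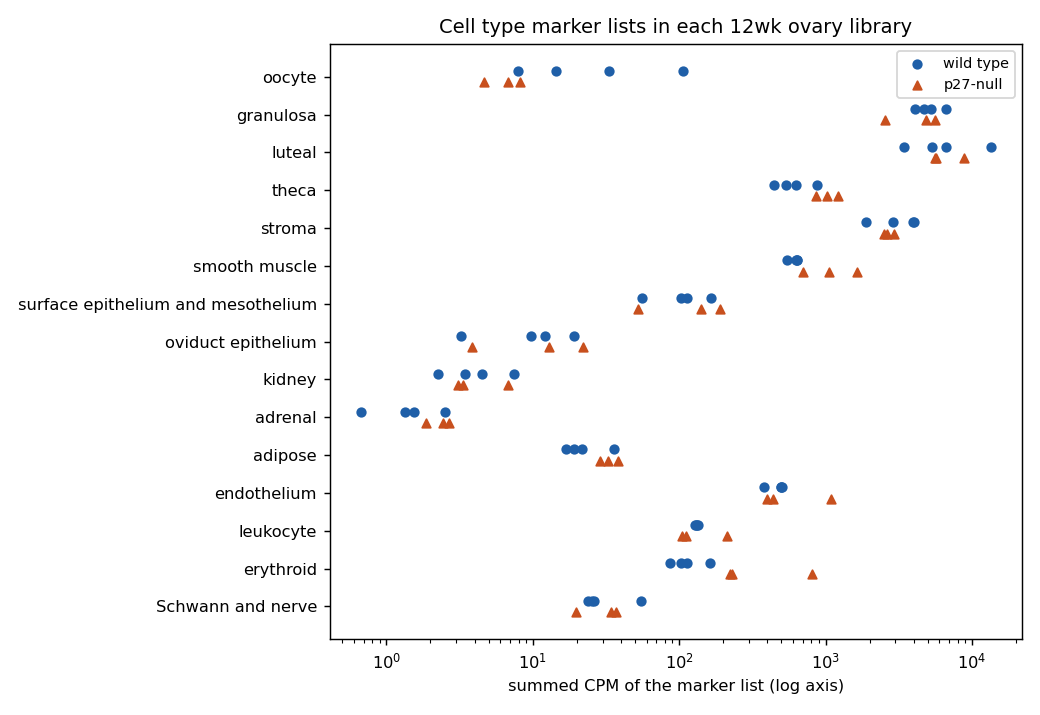
Summed level of each cell type marker list in the 12wk libraries (horizontal log axis, CPM), with 1 point per library, circles for the 4 wild-type and triangles for the 3 p27-null libraries. The erythroid and smooth muscle lists separate the genotypes, while the kidney list, at 2.27 to 7.45 CPM in wild type and 3.08 to 6.82 CPM in p27-null, does not.

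At 12wk, 9 of the 10 genes were higher in p27-null ovaries and Dynap was lower, where 49.3% of all genes had a log2 fold change above 0. The genotypes overlapped for none of the 10. Groups that did not overlap occurred in 8.77% of all genes tested at that age, and 0.0115% of them were called at an adjusted p under 0.05. Zfp521 was the 1 gene of the 10 among those called (edgeR adjusted p = 0.0288). The other 9 had edgeR adjusted p from 0.0521 to 0.144. The genes were chosen on this contrast, so nothing is read from these shares or p-values.

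Before 12wk none of the 10 genes passed the genotype test. The tests used edgeR's quasi-likelihood fit with Benjamini-Hochberg adjustment over all genes, and a gene is called at an adjusted p under 0.05. At E13.5, 7 of the 10 genes passed the filter on low counts and 0 were called (0.00606% of all genes tested), with 1 at an unadjusted p under 0.05 (3.49% of all genes) and 0 called by DESeq2 (0.397% of the genes it gave an adjusted p). Dynap, Adgrg7 and Serpina5 were too low to be tested there. At E18.5, 7 were tested and 0 were called (4.99% of all genes), with 2 at an unadjusted p under 0.05 (22.1%) and 2 called by DESeq2 (10.7%), Ogn and Rarres2. Dynap, Serpina5 and Aqp2 were not tested there. At PND8 all 10 were tested and 0 were called (0.349% of all genes), with 3 at an unadjusted p under 0.05 (15%) and 1 called by DESeq2 (5.67%), Rarres2.

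Among the genes tested, the genotypes did not overlap for Ogn at E13.5 (3.73% of all genes), for Zfp521 and Ogn at E18.5 (15.2%) and for Zfp521, Paqr9 and Rarres2 at PND8 (14.3%). Values of Zfp521 and Paqr9 were on the same side as at 12wk, and those of Ogn and Rarres2 on the opposite side. The same shares of all genes apply to the list genes given below as without overlap at these ages. Those genes were named for a small unadjusted p within their lists, so a gap between genotypes is likely among them. For list genes given below as without overlap at 12wk, the share of all genes was 8.77%. No list gene was called at 12wk. A test of whether the genotype effect differed among E13.5, E18.5 and PND8 (the genotype by age interaction) called 0 of the 10 genes (0.873% of all genes), with 1 gene, Rarres2, at an unadjusted p under 0.05 (11.2% of all genes; edgeR adjusted p = 0.136) and called by DESeq2 (adjusted p = 0.0152, 2.91% of genes). The difference between any of these ages and 12wk was not tested, since 12wk chose the genes.

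**Figure D2:**
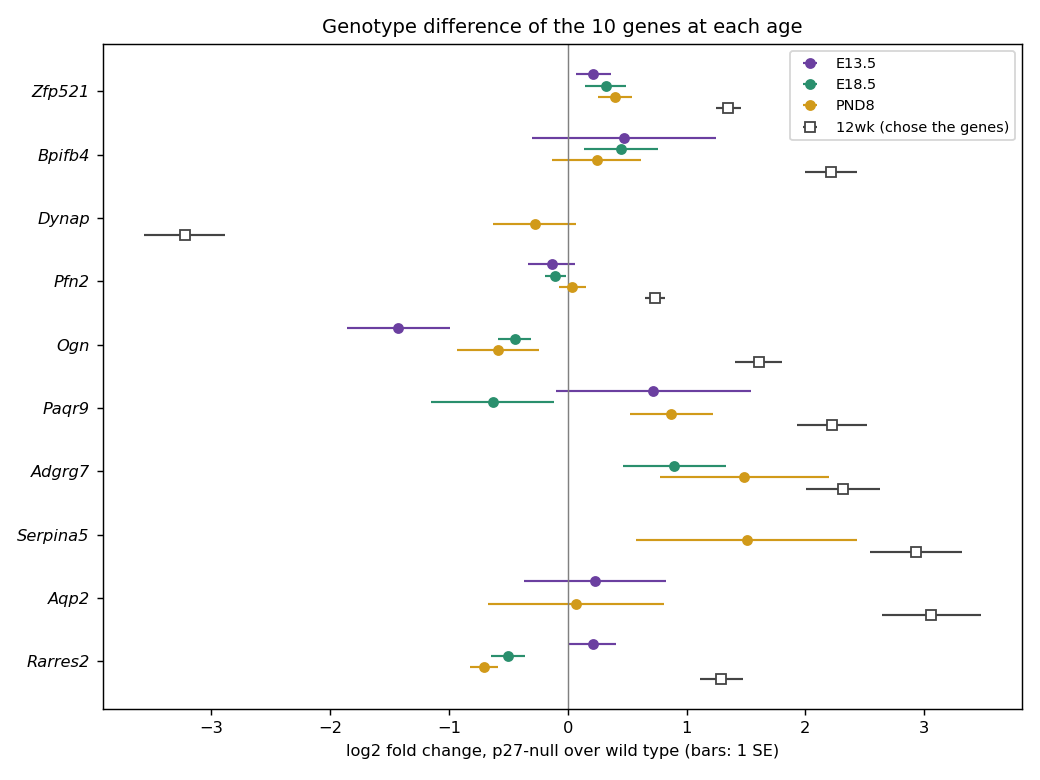
Log2 fold change of p27-null over wild type for each of the 10 genes (horizontal axis, bars 1 SE), filled circles for E13.5, E18.5 and PND8 and open squares for 12wk, the age on which the genes were chosen. Genes too low to be tested at an age have no symbol there, and the Ogn symbols lie left of 0 at the 3 earlier ages and at 1.61 at 12wk.

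**Figure D3:**
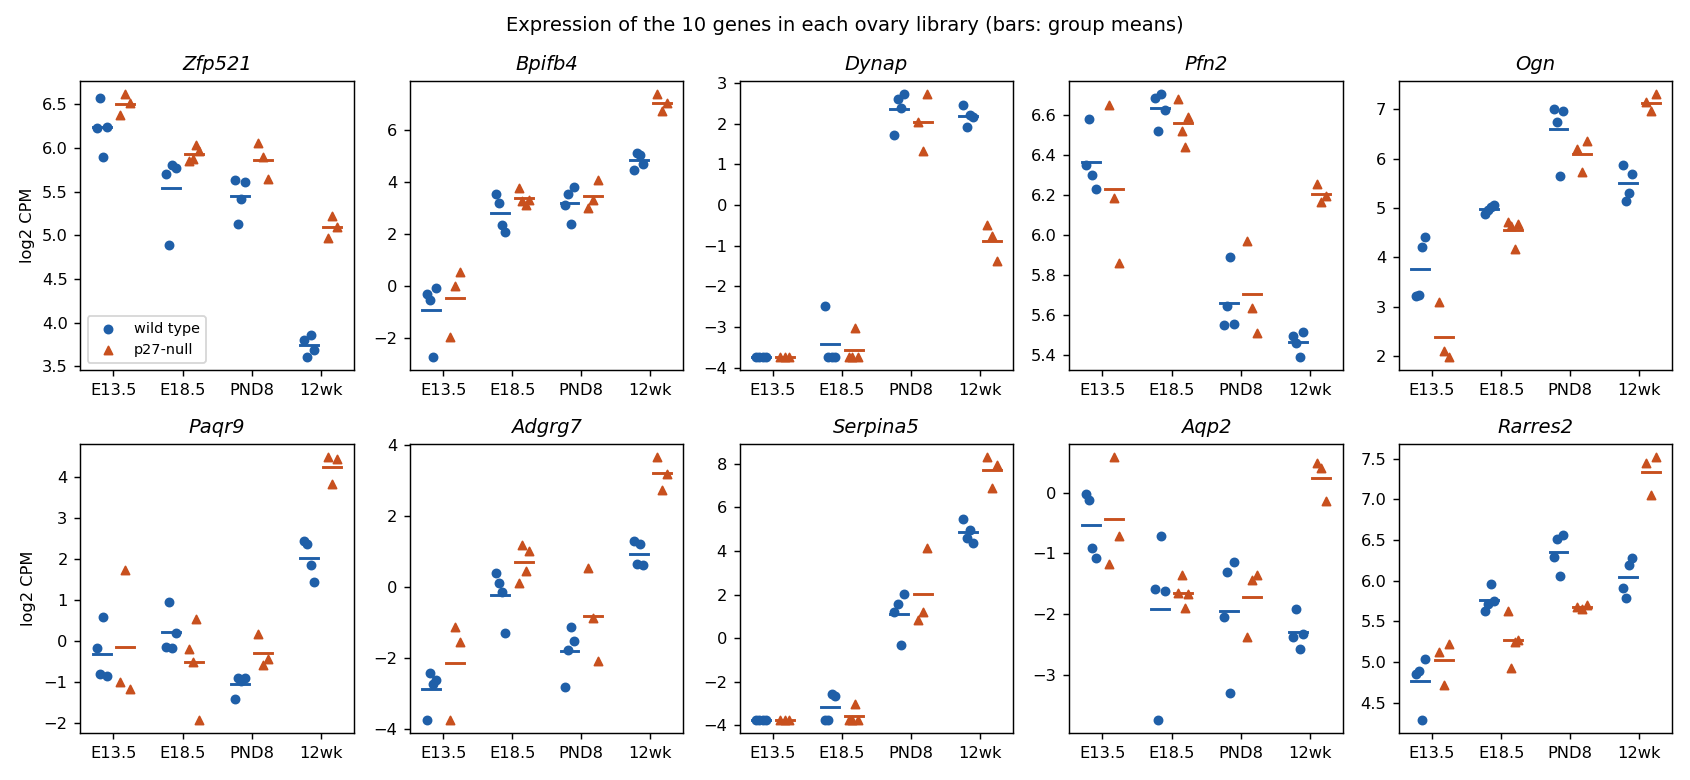
Level of each of the 10 genes in every library (vertical axis, log2 CPM, with its own scale in each panel) by age, circles for wild type and triangles for p27-null, with bars at the group means. At 12wk the 3 p27-null libraries sit above the 4 wild-type libraries in 9 panels and below them for Dynap.

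Among the secreted proteins, osteoglycin (Ogn) is a small leucine-rich proteoglycan that binds collagen fibrils in connective tissue. At 12wk it was at 58.7, 35.0, 39.7 and 51.5 CPM in wild type and at 141, 125 and 158 CPM in p27-null, a log2 fold change of 1.61 (SE 0.20) or 3.05-fold between means. The lowest p27-null library was above the highest wild-type library. At the 3 earlier ages the p27-null mean was below the wild-type mean.

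At E13.5, Ogn was at 9.26, 9.33, 18.4 and 21.1 CPM in wild type and at 8.54, 4.20 and 3.88 CPM in p27-null. The groups did not overlap, although 2 of the wild-type libraries lay close to the highest p27-null library. The log2 fold change was -1.43 (SE 0.43) and did not pass edgeR's quasi-likelihood test with Benjamini-Hochberg adjustment (adjusted p = 0.988). At E18.5 it was at 29.5, 31.2, 32.2 and 33.1 CPM in wild type and at 26.1, 24.9, 18.0 and 25.4 CPM in p27-null, again without overlap, with a log2 fold change of -0.45 (SE 0.14, edgeR adjusted p = 0.0839). DESeq2 gave an adjusted p of 0.0311 for it. At PND8 it was at 129, 108, 50.4 and 124 CPM in wild type and at 73.3, 53.0 and 81.6 CPM in p27-null. There wild-type replicate 3 fell below all p27-null libraries, and the log2 fold change was -0.59 (SE 0.35, edgeR adjusted p = 0.482).

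Ogn lies in a row of related genes on chromosome 13, with Omd (osteomodulin) 15.2 kb, Aspn (asporin, which binds collagen) 40.5 kb and Ecm2 75.3 kb away. At E18.5, Aspn was lower in p27-null ovaries, at 19.6 ± 2.71 CPM (SD, n = 4) against 30.5 ± 4.80 CPM (SD, n = 4), and passed the test with a log2 fold change of -0.67 (SE 0.15, edgeR adjusted p = 0.029). The call of Aspn was lost in 7 of 13 alternatives, with adjusted p from 0.00144 to 0.4: with all 29 samples in 1 fit and without wild-type replicate 3 or 4 or any 1 of the 4 p27-null replicates. At 12wk, described without a test, Aspn was at 7.12 ± 0.99 CPM in wild type and 19.7 ± 5.08 CPM in p27-null, and Ecm2 at 22.8 ± 1.11 CPM and 37.2 ± 5.65 CPM (SD, n = 4 and 3), neither overlapping. Omd was at 12.5 ± 7.25 CPM and 19.3 ± 3.28 CPM, with overlap. For both Ogn and Aspn the p27-null libraries lay below all wild-type libraries at E18.5 and above all of them at 12wk.

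**Figure D4:**
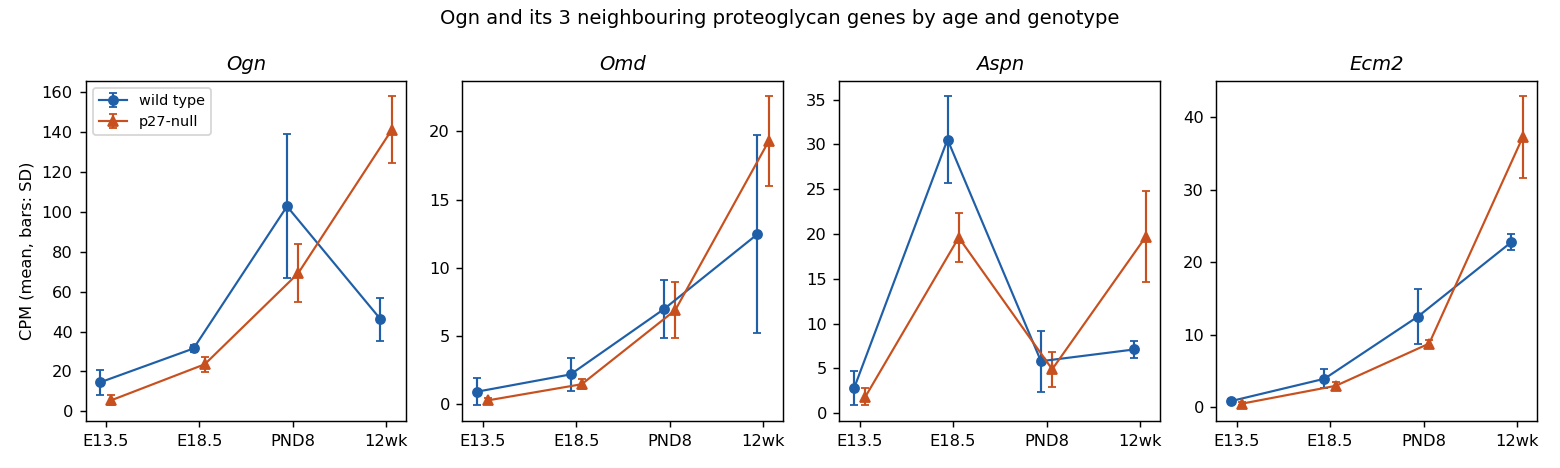
Mean level (vertical axis, CPM, bars SD) of Ogn and its 3 neighbours Omd, Aspn and Ecm2 at each age, circles for wild type (n = 4) and triangles for p27-null (n = 3, and 4 at E18.5). The p27-null mean of Ogn lies under the wild-type mean at the first 3 ages and above it at 12wk, at 141 against 46.2 CPM.

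The list of the other 16 small leucine-rich proteoglycans, which hold Dcn and Prelp of the connective tissue matrix, had 12, 10, 13 and 14 members tested at the 4 ages. Aspn at E18.5 was the 1 member called at any age (4.99% of all genes were called at E18.5). The median log2 fold change of the tested members went from -0.49 at E13.5 through -0.33 at E18.5 and -0.16 at PND8 to -0.08 at 12wk, and that of all genes tested lay between -0.0419 and -0.00286. Prelp was at 59.0 ± 4.97 CPM in wild type and 38.4 ± 7.95 CPM in p27-null at PND8, without overlap, and did not pass the test (edgeR adjusted p = 0.0986). The stroma list, which shares Dcn and Lum with it, overlapped between genotypes at every age.

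Rarres2 encodes chemerin, a secreted protein that attracts immune cells and acts as a hormone of fat tissue through the receptor Cmklr1. Its 12wk levels were 59.9, 55.1, 73.4 and 77.6 CPM in wild type and 174, 132 and 183 CPM in p27-null, a log2 fold change of 1.29 (SE 0.18) or 2.45-fold between means. All p27-null libraries were above all wild-type libraries. At PND8 the order was reversed, with 77.9, 91.1, 66.7 and 94.2 CPM in wild type and 51.2, 50.02 and 52.1 CPM in p27-null. The 3 p27-null libraries lay close together and below every wild-type library.

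The PND8 log2 fold change of Rarres2 was -0.70 (SE 0.12), with an edgeR adjusted p of 0.0531, above the threshold of 0.05. Over the alternatives the adjusted p ran from 2.37e-05 (DESeq2) to 0.347 (all 29 samples in 1 fit), and it was 0.00971 without wild-type PND8 replicate 3. At E18.5 it was at 49.2, 52.3, 62.1 and 53.6 CPM in wild type and at 49.4, 30.4, 37.8 and 38.7 CPM in p27-null, with 1 p27-null library inside the wild-type range. The log2 fold change was -0.50 (SE 0.15, edgeR adjusted p = 0.072), and it was -0.63 without p27-null E18.5 replicate 1 (edgeR adjusted p = 0.0347). DESeq2 gave an adjusted p of 0.0256. At E13.5 the genotypes overlapped, at 27.7 ± 5.73 CPM in wild type and 32.8 ± 5.84 CPM in p27-null (SD, n = 4 and 3). None of the genes of its list, the receptors Cmklr1 and Ccrl2, Gpr1 and the namesake Rarres1, was called at any age, where 2 to 4 of them were tested. Rarres1 at PND8 was at 1.27 ± 0.46 CPM and 0.35 ± 0.24 CPM, without overlap (edgeR adjusted p = 0.161).

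Serpina5 encodes protein C inhibitor, a secreted inhibitor of serine proteases such as activated protein C and plasminogen activators. In 12wk ovaries Serpina5 was at 44.2, 24.3, 30.7 and 20.5 CPM in wild type and at 316, 117 and 245 CPM in p27-null, a log2 fold change of 2.93 (SE 0.39) or 7.56-fold between means. The spread within p27-null was wide, and the lowest of these libraries was still above every wild-type library. At E13.5 it had 0 counts in all 7 libraries, which allows up to 0.116 to 0.227 CPM, and at E18.5 it had 4 counts in all over 4 wild-type and 1 count over 4 p27-null libraries. At PND8 it was at 2.23, 2.90, 0.73 and 4.04 CPM in wild type and at 1.70, 2.22 and 17.2 CPM in p27-null. The PND8 log2 fold change of 1.51 (SE 0.93, edgeR adjusted p = 0.499) rested on p27-null replicate 4 and was -0.37 without it. Of the 17 proteases, receptors and neighbouring clade A serpins in its list, 5 to 7 were tested at each age and none was called. Serpina3g, 130.1 kb away, was at 10.4 ± 0.77 CPM in wild type and 6.00 ± 2.17 CPM in p27-null at PND8, without overlap (edgeR adjusted p = 0.17).

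Bpifb4 belongs to the BPI fold family, whose members bind lipids. At 12wk it was at 21.8, 34.4, 32.4 and 25.8 CPM in wild type and at 165, 104 and 130 CPM in p27-null, a log2 fold change of 2.22 (SE 0.22) or 4.65-fold between means. The lowest p27-null library lay above the highest wild-type library by more than the spread within wild type. At E13.5 it was at 0.73, 0.62, 0.08 and 0.88 CPM in wild type and at 0.18, 0.93 and 1.38 CPM in p27-null, with overlap. The genotypes also overlapped at E18.5, at 7.43 ± 3.50 CPM (SD, n = 4) and 10.3 ± 2.21 CPM (SD, n = 4), and at PND8, at 9.70 ± 3.72 CPM and 11.5 ± 4.62 CPM (SD, n = 4 and 3). The log2 fold changes at the 3 ages were 0.47, 0.45 and 0.24, with edgeR adjusted p from 0.428 to 0.988. The sign turned without p27-null replicate 4 at E13.5 (-0.07) and at PND8 (-0.15).

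The BPI fold list holds 14 other genes, of which 3, 3, 4 and 6 were tested at the 4 ages. Pltp, the phospholipid transfer protein of plasma, was lower in p27-null ovaries at PND8, at 36.6 ± 4.01 CPM against 62.0 ± 7.39 CPM (SD, n = 3 and 4), and was the 1 member called (log2 fold change -0.77, SE 0.12, edgeR adjusted p = 0.0473). That call of Pltp was lost in 7 of 12 alternatives, with adjusted p from 2.36e-06 (DESeq2) to 0.798 (all 29 samples in 1 fit), among them leaving out wild-type replicate 1, 2 or 4 or p27-null replicate 3 or 4. Its log2 fold change ran from -0.86 to -0.70 over them. Of all genes tested at PND8, 0.349% were called. At 12wk, given without a test, 5 of the 6 tested members had a log2 fold change above 0, where 49.3% of all genes did, with a median of 1.29 against -0.00371 for all genes. A scarce gene can pass the filter on low counts through the genotype in which it is high. Which members did so at 12wk was not checked, so nothing is read from this count and median. Lbp, which binds bacterial lipopolysaccharide, was at 8.54 ± 3.37 CPM in wild type and 19.6 ± 4.76 CPM in p27-null at that age, without overlap. Bpifb5 was at 4.80 ± 4.11 CPM and 24.8 ± 12.2 CPM, also without overlap. Pltp lay on the other side, at 71.2 ± 32.2 CPM and 39.0 ± 4.97 CPM, with overlap. Lbp and Bpifb5 are among the genes named for a small unadjusted p before 12wk. Their 12wk values are given because they were seen to lie on the side of Bpifb4.

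Among the membrane proteins, Aqp2 is the water channel of the kidney collecting duct that answers to vasopressin. In the ovary it was scarce throughout, from 0 to 1.43 CPM over the 29 libraries. At 12wk it was at 0.12, 0.19, 0.09 and 0.12 CPM in wild type, which is 4, 6, 3 and 4 counts, and at 1.32, 1.24 and 0.83 CPM in p27-null, which is 31, 46 and 24 counts. The p27-null libraries were all higher, with a log2 fold change of 3.06 (SE 0.42) or 8.63-fold between means, and the wild-type level rests on few counts. The kidney markers Umod, Slc12a1, Slc34a1, Nphs1, Pax2 and Scnn1g were at or under the floor in both genotypes at 12wk, and the vasopressin receptor Avpr2 was at 0.13 ± 0.07 CPM and 0.18 ± 0.16 CPM. The p27-null level at 12wk was within the range of E13.5, where Aqp2 was at 0.91, 0.84, 0.45 and 0.40 CPM in wild type and at 0.37, 1.43 and 0.53 CPM in p27-null. The log2 fold change at E13.5 was 0.23 (SE 0.60, edgeR adjusted p = 0.988), and -0.55 without p27-null replicate 3. At E18.5 Aqp2 did not pass the filter, at 0.26 ± 0.22 CPM and 0.25 ± 0.05 CPM. At PND8 the log2 fold change was 0.07 (SE 0.74, edgeR adjusted p = 0.977), and its sign turned when wild-type replicate 1 or 3 or p27-null replicate 3 or 4 was left out.

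None of the 12 other genes of the aquaporin list was called at any age, with 5, 3, 6 and 8 tested. Aqp5, a water channel of glands, was at 3.22 ± 0.84 CPM in wild type and 2.06 ± 0.31 CPM in p27-null at PND8, without overlap (edgeR adjusted p = 0.272). At 12wk it was at 1.07 ± 0.45 CPM and 3.79 ± 0.77 CPM, without overlap and without a test. Aqp3, named after its values were seen, lay on the other side at 12wk without overlap, at 0.34 ± 0.08 CPM and 0.13 ± 0.07 CPM. So did Aqp11, at 3.10 ± 0.70 CPM and 1.76 ± 0.14 CPM. Aqp11 is among the genes named for a small unadjusted p before 12wk, and its 12wk values are given because they were seen.

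Adgrg7 encodes an adhesion G protein-coupled receptor with no settled ligand. Its 12wk levels were 2.36, 1.48, 2.22 and 1.46 CPM in wild type and 12.6, 6.60 and 9.01 CPM in p27-null, a log2 fold change of 2.32 (SE 0.31) or 4.99-fold between means. All p27-null libraries were above all wild-type libraries. At E13.5 it had 0 to 2 counts in wild-type and 0, 10 and 5 counts in p27-null libraries. At E18.5 it was at 1.25, 1.00, 0.83 and 0.33 CPM in wild type and at 1.01, 2.20, 1.298 and 1.96 CPM in p27-null, with a log2 fold change of 0.90 (SE 0.43, edgeR adjusted p = 0.25). At PND8 it was at 0.07, 0.22, 0.38 and 0.27 CPM and at 1.38, 0.47 and 0.16 CPM, with a log2 fold change of 1.49 (SE 0.71, edgeR adjusted p = 0.368). The genotypes overlapped at all 3 earlier ages, while the p27-null mean lay above the wild-type mean each time. The PND8 log2 fold change ran from 0.41 to 1.93 when single libraries were left out. None of the 6 other group G receptors was called, with 4 or 5 tested at each age. Adgrg1, which binds collagen III, was at 484 ± 29.3 CPM in wild type and 591 ± 22.9 CPM in p27-null at PND8, without overlap (edgeR adjusted p = 0.157).

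Paqr9 belongs to the progestin and adipoQ receptors, some of which bind progesterone at the cell membrane. In 12wk ovaries Paqr9 was at 5.37, 5.10, 3.54 and 2.65 CPM in wild type and at 22.4, 14.2 and 21.5 CPM in p27-null, a log2 fold change of 2.22 (SE 0.29) or 4.66-fold between means. The p27-null libraries were all above the wild-type libraries. At PND8 it was at 0.30, 0.47, 0.43 and 0.46 CPM in wild type and at 1.05, 0.59 and 0.67 CPM in p27-null, again without overlap, and the log2 fold change of 0.87 (SE 0.35) did not pass the test (edgeR adjusted p = 0.29). Paqr9 values at E18.5 were 0.83, 1.85, 0.83 and 1.08 CPM and 0.81, 0.63, 1.40 and 0.19 CPM, with overlap (log2 fold change -0.63, SE 0.52, edgeR adjusted p = 0.508). At E13.5 they were 0.82, 0.51, 1.44 and 0.49 CPM and 0.43, 3.28 and 0.37 CPM. There p27-null replicate 3 stood apart, and the log2 fold change of 0.72 (SE 0.82, edgeR adjusted p = 0.988) was -1.03 without it.

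Of the 13 other genes of the Paqr9 list, 12 or 13 were tested at each age, and 2 were called, both at E18.5 (4.99% of all genes). Mmd2, a family member related to Mmd, was at 8.28 ± 2.56 CPM in wild type and 3.24 ± 0.42 CPM in p27-null, and was lower (log2 fold change -1.38, SE 0.26, edgeR adjusted p = 0.014). Mmd, a gene linked to macrophage differentiation, was at 59.2 ± 3.11 CPM and 80.9 ± 3.43 CPM, and was higher (log2 fold change 0.42, SE 0.09, edgeR adjusted p = 0.0249; SD, n = 4 and 4 for both). Of 13 alternatives, the Mmd2 call was lost in 2, without wild-type replicate 4 or p27-null replicate 3 (adjusted p up to 0.0549). The Mmd call was lost in 5, without wild-type replicate 3 or 4 or p27-null replicate 2, 3 or 4 (adjusted p up to 0.11). Paqr7, a membrane progestin receptor, was at 40.9 ± 6.11 CPM and 28.1 ± 2.12 CPM at PND8, without overlap (edgeR adjusted p = 0.0918). At 12wk, given without a test, 8 of the 13 tested members had a log2 fold change above 0, where 49.3% of all genes did. Their median was 0.07, against -0.00371 for all genes, and nothing is read from this count and median.

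Dynap encodes a membrane protein named for its binding to dynactin, the cofactor of the dynein motor, and it was the 1 gene of the 10 that was lower in p27-null ovaries at 12wk. It was at 5.46, 3.68, 4.57 and 4.42 CPM in wild type and at 0.64, 0.51 and 0.31 CPM in p27-null, a log2 fold change of -3.22 (SE 0.34) or 9.29-fold between means. The highest p27-null library was far below the lowest wild-type library. At PND8 the genotypes overlapped, at 3.23, 6.05, 5.13 and 6.54 CPM in wild type and at 4.06, 2.45 and 6.51 CPM in p27-null, with a log2 fold change of -0.28 (SE 0.35, edgeR adjusted p = 0.759). Its sign turned (0.01) without p27-null PND8 replicate 3. At E13.5 it had 0 counts in all 7 libraries, and at E18.5 2 counts in all over 4 wild-type libraries and 1 count over 4 p27-null libraries. From PND8 to 12wk the mean went from 5.24 to 4.53 CPM in wild type and from 4.34 to 0.49 CPM in p27-null. None of the 9 dynactin genes was called at any age, with all 9 tested each time.

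The oocyte marker list overlapped between genotypes at 12wk, where the highest p27-null library, at 8.14 CPM, exceeded wild-type replicate 2, at 7.94 CPM. In that wild-type library Dynap was at 3.68 CPM, against 0.31 to 0.64 CPM in the p27-null libraries. It was the lowest wild-type library on the oocyte list. Wild-type replicates 1, 3 and 4 were at 14.4, 106 and 33.3 CPM on the list, above all p27-null libraries, at 4.65, 8.14 and 6.80 CPM. At PND8 the same list was at 170 to 663 CPM in wild type and at 415 to 983 CPM in p27-null. The part of oocytes in the Dynap values was not tested.

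In the nucleus, Zfp521 is a zinc finger protein that binds EBF factors and keeps several progenitor cell types undifferentiated. In 12wk ovaries Zfp521 was at 13.9, 12.1, 14.5 and 12.8 CPM in wild type and at 31.2, 37.2 and 34.0 CPM in p27-null, a log2 fold change of 1.35 (SE 0.11) or 2.57-fold between means. Both groups were tight and far apart. At PND8 it was at 49.5, 34.9, 42.8 and 49.0 CPM in wild type and at 66.4, 59.4 and 50.1 CPM in p27-null, with a log2 fold change of 0.40 (SE 0.14, edgeR adjusted p = 0.245). At E18.5 it was at 52.0, 29.7, 56.0 and 54.6 CPM and at 57.9, 58.4, 65.8 and 62.5 CPM, with a log2 fold change of 0.32 (SE 0.17, edgeR adjusted p = 0.295). All p27-null libraries were above all wild-type libraries at both ages, by small margins. At E18.5 wild-type replicate 2 stood low, and the log2 fold change was 0.15 at its smallest when single libraries were left out. At E13.5 the genotypes overlapped, at 75.2, 95.4, 59.7 and 75.9 CPM and at 83.3, 98.2 and 91.6 CPM (log2 fold change 0.21, SE 0.15, edgeR adjusted p = 0.988).

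None of the 7 EBF, RUNX and paralog genes of the Zfp521 list was called at any age, with 6 or 7 tested. Ebf2 was at 9.69 ± 7.82 CPM in wild type and 1.24 ± 0.41 CPM in p27-null at E13.5 (SD, n = 4 and 3), without overlap (log2 fold change -3.03, SE 0.78, edgeR adjusted p = 0.988). The nerve marker list was lower in the same p27-null libraries, as given above, and its part in the Ebf2 values was not tested.

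Profilin 2 (Pfn2) binds actin monomers and feeds filament growth. It had the smallest 12wk difference of the 10 genes and the tightest groups, at 45.1, 43.9, 41.9 and 45.6 CPM in wild type and 76.4, 71.7 and 73.2 CPM in p27-null, a log2 fold change of 0.74 (SE 0.08) or 1.67-fold between means. No library of one genotype came near the other. The genotypes overlapped at E13.5, at 82.8 ± 8.97 CPM and 77.1 ± 21.6 CPM, at E18.5, at 99.5 ± 5.65 CPM and 94.5 ± 6.72 CPM, and at PND8, at 50.8 ± 5.84 CPM and 52.6 ± 9.00 CPM. The log2 fold changes were -0.14, -0.10 and 0.04 with SE of 0.20, 0.09 and 0.11, and edgeR adjusted p from 0.544 to 0.988. Of the 10 profilins and actin assembly partners in its list, 9 were tested at each age. Diaph3, a formin that nucleates actin filaments, was higher in p27-null ovaries at E18.5, at 49.9 ± 8.44 CPM against 27.1 ± 5.19 CPM (SD, n = 4 and 4), and was the 1 member called (log2 fold change 0.85, SE 0.16, edgeR adjusted p = 0.0121). Diaph3 was called in all 13 alternatives, with adjusted p up to 0.0499. Of all genes tested at E18.5, 4.99% were called.

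The genes differed widely in their course through development before 12wk. Consecutive ages share the E18.5 libraries, so the steps are not independent of each other. A gene that passed the filter on low counts only through the age at which it was high had to differ, so calls are counted here over genes that passed it at each of both ages. In wild type from E13.5 to E18.5 there were 4 such genes, and 3 were called (33.1% of all genes of that kind). Ogn rose by 1.10 on the log2 scale (SE 0.27, edgeR adjusted p = 0.0106) and Rarres2 by 0.96 (SE 0.16, edgeR adjusted p = 0.00133). Zfp521 fell by 0.68 (SE 0.20, edgeR adjusted p = 0.0245), a call that was lost without wild-type E13.5 replicate 2 (edgeR adjusted p = 0.0701).

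In p27-null over the same step there were again 4 such genes, and 2 were called (30.5% of all genes of that kind). Ogn rose by 2.10 and Zfp521 fell by 0.57 on the log2 scale (edgeR adjusted p = 0.00144 and 0.00248). Rarres2 had a log2 fold change of 0.26 (SE 0.18, edgeR adjusted p = 0.308). No test set these counts against the shares of all genes. Bpifb4 passed the filter through E18.5, and its log2 fold change over this step was 3.62 in wild type and 3.61 in p27-null. Adgrg7 in p27-null did so too, with a log2 fold change of 2.79.

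From E18.5 to PND8, 3 of 5 such genes were called in wild type (74.4% of all genes of that kind) and 3 of 6 in p27-null (77.8%). Ogn rose by 1.62 on the log2 scale in wild type and by 1.501 in p27-null (edgeR adjusted p = 0.000207 and 3.1e-05). Pfn2 fell by 1.06 in wild type and by 0.90 in p27-null (edgeR adjusted p = 4.41e-06 and 3.25e-05). Rarres2 rose by 0.51 in wild type (SE 0.13, edgeR adjusted p = 0.00459) and by 0.34 in p27-null (SE 0.13, edgeR adjusted p = 0.0429). The p27-null call of Rarres2 was lost when any of p27-null PND8 replicates 1, 3 and 4 or E18.5 replicates 2, 3 and 4 was left out, with adjusted p up to 0.106. Zfp521 and Bpifb4 were not called in either genotype in this step. Zfp521 in wild type had an edgeR adjusted p of 0.0448 without E18.5 replicate 2.

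Dynap and Serpina5 were nearly at 0 counts at E18.5 and passed the filter through PND8, so their levels are given without a test. Dynap counts per scaled library differed by a ratio of 224 (95% exact interval 61.7 to 1850, counting error only) in wild type and 365 (65.2 to 14400) in p27-null, higher at PND8. Serpina5 counts differed by a ratio of 52.2 (20.2 to 192) in wild type and 545 (97.5 to 21600) in p27-null, where PND8 replicate 4 held most of the counts. Paqr9 and Adgrg7 in wild type passed through E18.5, with log2 fold changes of -1.55 and -1.90. In p27-null Paqr9 had a log2 fold change of -0.02 (SE 0.55) and Adgrg7, which again passed through E18.5, of -1.305 (SE 0.62). Whether these steps differed between genotypes is covered only by the 3-age interaction, which called neither gene.

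From PND8 to 12wk the group means, given without a test, parted between genotypes. The genes were chosen for a difference at 12wk, so a parting by that age follows from the choice. Zfp521 went from 44.1 to 13.3 CPM in wild type and from 58.7 to 34.2 CPM in p27-null. Ogn went from 103 to 46.2 CPM in wild type and from 69.3 to 141 CPM in p27-null. Rarres2 went from 82.5 to 66.5 CPM and from 51.1 to 163 CPM, and Pfn2 from 50.8 to 44.1 CPM and from 52.6 to 73.7 CPM. Serpina5, Bpifb4, Paqr9 and Adgrg7 had higher means at 12wk than at PND8 in both genotypes.

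Ordered by mean over the 8 groups of age and genotype, the 12wk p27-null group was the highest for 7 genes, Ogn, Rarres2, Serpina5, Bpifb4, Aqp2, Adgrg7 and Paqr9. In this order, a gap between the 2 groups of 12wk follows from how the genes were chosen. For Bpifb4 and Serpina5 the 12wk wild-type group came next, and both 12wk groups lay clear of each other and of all groups below them. For Ogn the next group was PND8 wild type, whose range overlapped that of 12wk p27-null. For Aqp2 the ranges of all neighbours in the order overlapped. Zfp521 had the opposite order, highest at E13.5 and lowest at 12wk, with the 12wk p27-null group between the 12wk wild-type group and all others. Its ranges overlapped for every neighbouring pair of groups except the 2 groups of 12wk. Pfn2 was highest at E18.5 and lowest in wild type at 12wk, and its 12wk p27-null group lay between the PND8 and the E13.5 groups. Dynap was highest in wild type at PND8 and 12wk with overlap, while its 12wk p27-null group lay between those and the near-empty prenatal groups.

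The genes most like each of the 10 were taken by Pearson's r of log2 CPM over the 29 libraries among 13748 genes. These values describe libraries that share ages and genotypes, so they mostly follow the group means, and r was also computed after the group means were removed. Serpina5 was most like Slc25a35 (r = 0.976, and 0.58 with group means removed) and Mark1 (0.968 and 0.38). Bpifb4 was most like Aldh1a1, which makes retinoic acid (0.966 and 0.58), and Acsbg1 (0.957 and 0.74). Dynap was most like Wdr59 (0.966 and 0.11) and Syt7 (0.961 and 0.12), likenesses that all but vanished within groups.

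Ogn was most like Fhl2 (0.925 and 0.44) and Kansl1l (0.923 and 0.42), Zfp521 like Slc38a4 (0.922 and 0.47) and Mdm1 (0.902 and 0.39), and Paqr9 like Nckap5 (0.916 and 0.48) and Thrb (0.884 and 0.46). Rarres2 was most like Ndrg2 (0.908 and 0.32) and Hoxd8 (0.88 and 0.23). Adgrg7 was most like Paqr8, another gene of the progestin receptor family (0.897 and 0.18), and Serpinb1a (0.881 and 0.43). Pfn2 was most like Ccl11 (0.883 and 0.23) and Inpp4b (0.88 and 0.28). Aqp2 had no close match, with r of 0.65 for Brap.

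Among the 10 genes themselves, the closest pair was Bpifb4 and Rarres2 (r = 0.844 over the 29 libraries, and 0.43 with group means removed), and the most opposed was Dynap and Pfn2 (r = -0.879 and -0.02). Ogn and Rarres2 had r of 0.828, and 0.22 with group means removed. Adgrg7 and Serpina5, both higher in p27-null ovaries at 12wk, had r of 0.586 over all libraries and -0.39 with group means removed.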

How the data were processed

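RNA was sequenced in bulk from 29 ovary samples of 2 genotypes and 4 ages. The authors deposited gene-level expected counts from RSEM, per the file headers, which are estimated read counts that share reads among similar genes and need not be whole (31.4% of values above 0 were not). The submitters' processing notes name Trim Galore, FastQC 0.11.5, STAR 2.5.2 and RSEM 1.3.0. The genome build, annotation and strand setting are not given in the sources used here. The header names a folder of 2 combined projects without saying which samples came from which, so this could not be used as a batch.

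Expected counts of 51912 genes were rounded to whole numbers, and symbols were matched by ID for 51633 of them. Each comparison was fitted on its own samples with edgeR 4.0.16 (R 4.3.3): counts were scaled by TMM, low genes were dropped by filterByExpr (count of 10, total of 15), the quasi-likelihood F test was run in its robust form, and p-values were adjusted by Benjamini and Hochberg's method over all genes tested, with a threshold of 0.05. SE was taken from the log2 fold change and F (change over root F). CPM values use TMM-scaled library sizes over all samples, and log2 CPM a prior count of 2. The scripts were tested on simulated data. Positions are those of GENCODE M21, and promoter windows those of RefSeq. The 39 pairs of replicates within groups all differed by more than sampling noise (chi-square per degree of freedom 13 to 285).

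The members and lists were chosen with earlier results of these data known. The genes named were the 10 members, Cdkn1b, up to 3 genes per family list with the smallest unadjusted p before 12wk, genes of a list that share a locus with a member, and the 2 genes most like each member. Other genes are said to be chosen after their values were seen. Age steps were counted over genes with enough libraries above the filter's limit at each age (at least as many as the smaller group holds), a rule set after the data were seen. Alternatives were RLE scaling, no filter, DESeq2 1.42.0, the replicate number as a block, all samples in 1 fit, and leaving out each replicate. The titles number replicates, so same-numbered libraries were checked for shared deviations from their group means. Every pair's correlation was over 0.1 for the genotypes at E18.5 (0.101 to 0.199) and for p27-null E13.5 against E18.5 (0.133 to 0.205). In the other comparisons at least 1 pair was at or under 0.1. Differently numbered libraries were not compared, so the check cannot show that the numbers pair the samples. Libraries of E13.5 and E18.5 also come from different embryos. The results above come from fits without the block in every comparison, and the block was run only as an alternative. With the block, 937 genes were called at E18.5, of which 711 were among the 814 called without it. For the p27-null step from E13.5 to E18.5 it called 3877 genes, against 5018 without it.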

Additional observations from a re-analysis of the deposited data

Results flagged for a closer look

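Of 43 groups of 4 libraries examined among these genes, 2 held a library far from the others, and chance flags about 1 in 20 such groups. Zfp521 in wild-type E18.5 replicate 2 was at 29.69 CPM, against 51.99 to 55.96 CPM in the other 3 libraries. Ogn in p27-null E18.5 replicate 3 was at 17.98 CPM, against 24.87 to 26.11 CPM in the others.

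Ogn had a log2 fold change of -1.425 at E13.5 and -0.4476 at E18.5 but 1.609 at 12wk, with every p27-null library on the same side of every wild-type library each time. Rarres2 had -0.7023 at PND8 and 1.294 at 12wk in the same way. These differences between ages were not tested, since 12wk chose the genes.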

How the results depend on the processing

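The number of the 10 genes called for genotype was 0 at E13.5 under every alternative. It was 2 at E18.5 with DESeq2 and 0 to 1 when single replicates were left out, and at PND8 it was 1 with DESeq2, 1 with no filter and 0 to 1 when single replicates were left out. For the 3-age interaction it was 1 with DESeq2 and 0 otherwise. Counts over all genes moved more. At E13.5, 1 gene was called, against 65 with DESeq2, 59 with all samples in 1 fit and 0 to 1 when replicates were left out. At E18.5, 814 were called, against 1681 with DESeq2 and 246 to 1372. At PND8, 62 were called, against 258 with no filter, 813 with DESeq2, 0 with all samples in 1 fit and 0 to 147. The interaction called 169, against 112 with no filter, 497 with DESeq2 and 94 to 217. RLE scaling changed none of these by over 1.5 times.

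With the replicate block, 8 genes were called at PND8, and the adjusted p of 2 age steps crossed the threshold, Zfp521 in wild type from E13.5 to E18.5 (0.0605) and Rarres2 in p27-null from E18.5 to PND8 (0.0893). In neither of these comparisons did all same-numbered pairs correlate over 0.1. Where all did, the block changed no call of the 10 genes. Signs reversed for log2 fold changes that were not called. Under the block Paqr9 was at -0.0222 at E13.5, and its p27-null step from E18.5 to PND8 was 0.12 (0.0286 with no filter, 0.0425 with all samples in 1 fit).

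When single replicates were left out, the log2 fold change at E13.5 ran from -1.03 to 1.195 for Paqr9, from -0.55 to 0.54 for Aqp2, from -0.0686 to 0.93 for Bpifb4 and from -0.39 to 0.0401 for Pfn2. At PND8 it ran from -0.31 to 0.44 for Aqp2, from -0.10 to 0.12 for Pfn2, from -0.71 to 0.00852 for Dynap, from -0.15 to 0.46 for Bpifb4 and from -0.37 to 1.97 for Serpina5. The p27-null step of Paqr9 ran from -1.34 to 0.90 for E13.5 to E18.5 and from -0.35 to 0.43 for E18.5 to PND8, and that of Bpifb4 for E18.5 to PND8 from -0.27 to 0.33. The cause of these changes was not tested. Dynap and Serpina5 at E13.5 and E18.5 and Adgrg7 at E13.5 had too few counts to be tested between genotypes, so differences there were not detectable at this depth.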
